A study of Mus musculus with 2 samples.

Results

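Fragments of the mRNAs that equip MHC class I molecules with peptide were counted in small RNA libraries of mouse spleen cells. The 10 genes are B2m, Tap1, Tap2, Tapbp, Psmb8, Psmb9, Psmb10, Nlrc5, Erap1 and Psme1. They were chosen by their known roles and not by their values, though earlier results of these data were known. They stand among 11911 protein-coding genes that had any fragment. A fragment was counted for a gene when its sequence of 20 to 30 nt was identical, in sense, to annotated transcripts of that protein-coding gene and of no other. The cells came from C57BL/6J mice, were enriched on CD11c beads and were sorted on an antibody to Ia, an MHC class II protein of the cell surface, into an Ia_low and an Ia_high population. Both populations carry the label dendritic cells, and the labels name no treatment, allele or animal age. There was 1 library per population, so the differences have no replicate check and no p-value is given. The labels do not say how many mice were used. In such bulk samples, fewer cells of a type and less RNA per cell cannot be told apart.

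MHC class I molecules show peptides from the cell's own proteins to CD8 T cells. Proteasomes cut these proteins in the cytosol, the TAP transporter carries the peptides into the endoplasmic reticulum, and a loading complex fits them onto a heavy chain paired with beta-2-microglobulin. Dendritic cells are known to carry much of this machinery, including the immunoproteasome, and one of their subsets, cDC1, is known for loading peptides of captured antigens onto class I molecules as well.

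The Ia_low library held 13739811 reads of 758783 distinct sequences, called tags here, and the Ia_high library held 16388303 reads of 1185709 tags. Of these, 142394 tags in Ia_low and 343784 in Ia_high were assigned to a single protein-coding gene, and levels below are distinct tags per 100000 such assigned tags. The reads were amplified over 12 PCR cycles without molecular identifiers, so exact (Clopper-Pearson) 95% intervals and floors cover counting error only. Assigned tags had been read a median of 10 times in Ia_low and 5 times in Ia_high, which is why distinct tags and not reads were the main measure. Markers of other cells moved with the gate. Of the Ly6C-low monocyte markers, 9 of 10 measured were at least 2-fold higher in Ia_low, with summed levels of 1260 in Ia_low and 485 in Ia_high. Of the cDC1 markers, 7 of 8 measured were at least 2-fold lower, with summed levels of 105 in Ia_low and 448 in Ia_high. Xcr1, Cadm1, Tlr3 and Batf3 had 0 tags in Ia_low, which allows up to 2.11 per 100000. In Ia_high they had 42, 102, 59 and 5 tags. The 1.45 per 100000 of Batf3 in Ia_high lies below that limit, so its 0 shows no difference, and it was not among the 8 measured. Of the mature dendritic cell markers, 5 of 8 were lower (75.1 in Ia_low and 365 in Ia_high), and of the MHC class II genes 6 of 8 were lower (697 in Ia_low and 1294 in Ia_high). Of the 5 T cell markers, Cd3e, Cd3g, Cd3d and Lck had 0 tags in both libraries, and Tcf7 had 0 in Ia_low and 32 in Ia_high, at least 4.42-fold lower by a floor of 3 tags per library. Over all genes measured, 6.21% were called higher and 9.51% lower by the same rule. Other lists moved as well. Higher were 3 of 5 measured Ly6C-high monocyte, 2 of 3 plasma cell and 1 of 2 neutrophil markers. Lower were 4 of 6 cDC2 and 3 of 6 macrophage markers. Of 4 plasmacytoid markers 1 was higher and 2 were lower. What part these differences in cell content have in the values of the class I genes was not tested.

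The data are short pieces of mRNA, and coding pieces of 5 of the genes are shown here as examples of what was counted. All but the longer Tap1 piece were the most-read coding tag of their gene in a library. The longer Tap1 piece is shown because it was in both libraries. Not shown are the most-read coding tag of Tap1 in Ia_low (19 reads in Ia_low and 0 in Ia_high) and that of Psmb8 in Ia_high (18 in Ia_low and 39 in Ia_high). The pieces shown are written as DNA, 5′ to 3′, in the sense of the mRNA. In the pieces over a join of exons, capitals mark the bases that lie in the downstream exon, so those pieces come from spliced mRNA. In the Tap1 and Psme1 pieces, capitals mark the bases that the other piece shown for that gene does not cover.
B2m, over the join of exons 1 and 2: gaccggcctgtatgctatccagaAAACC
B2m, exon 2: actgagactgatacatacgcc
Psmb8, over the join of exons 4 and 5: gtggctgggacaagaagGGACCAGGA
Tap1, exon 7: atgcagaaggctgtgggctcc
Tap1, exon 7: atgcagaaggctgtgggctccTCAGAGAA
Psme1, exon 6: Tgagatcaaggatgtcactgagcaact
Psme1, exon 6: gagatcaaggatgtcactgagcaactC
Psmb9, exon 4: catagtagctggctgggacc
Psmb9, exon 5: tttatggttatgtggacgcagc
The B2m piece over the join was its most-read coding tag in Ia_low, with 70 reads in Ia_low and 28 in Ia_high. The exon 2 piece was its most-read coding tag in Ia_high, with 33 reads in Ia_low and 164 in Ia_high. The Psmb8 piece had 34 reads in Ia_low and 29 in Ia_high. Both Tap1 pieces start at the same base, on GRCm38 at chromosome 17, base 34193152 of the plus strand. The shorter one had 2 reads in Ia_low and 35 in Ia_high, the longer one 5 in Ia_low and 23 in Ia_high. The Psme1 pieces are shifted by a single base, from 55580394 to 55580420 and from 55580395 to 55580421 on the plus strand of chromosome 14. The first had 42 reads in Ia_low and 12 in Ia_high, and the second had 0 reads in Ia_low and 53 in Ia_high. The Psmb9 exon 4 piece had 12 reads in Ia_low and 29 in Ia_high, and the exon 5 piece 16 in Ia_low and 0 in Ia_high.

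The comparison asked whether the RNA of the class I loading genes differed between CD11c+ cells with low and with high surface Ia. None of the 10 genes met the rule for a call, a difference of at least 2-fold whose interval does not include 1. Over the 7132 genes that had 10 tags or more in both libraries together, 6.21% were called higher and 9.51% lower by this rule. All 10 class I genes passed that minimum. Their median ratio of Ia_low over Ia_high was 0.842, beside 0.905 for all genes measured. Summed over the 10 genes, the level was 314 tags per 100000 in Ia_low (447 tags, interval 286 to 344) and 297 in Ia_high (1021 tags, 279 to 316), a ratio of 1.06 with an interval of 0.944 to 1.18. This sum was led by B2m, which took 50.8% of the tags in Ia_low and 38.5% in Ia_high. Without B2m the ratio was 0.846 (0.722 to 0.988). The median of all genes lay at -0.14 on the log2 scale. Centred on it, 5 of the 10 genes were below 1 and 0 were called, while 8.33% of all genes were called higher and 7.22% lower. Scaled to all tags of 20 to 30 nt, 3.08% of all genes were called higher and 18.6% lower, and 4 of the 10 were called lower, Psmb9, Nlrc5, Erap1 and Psme1.

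**Figure D1:**
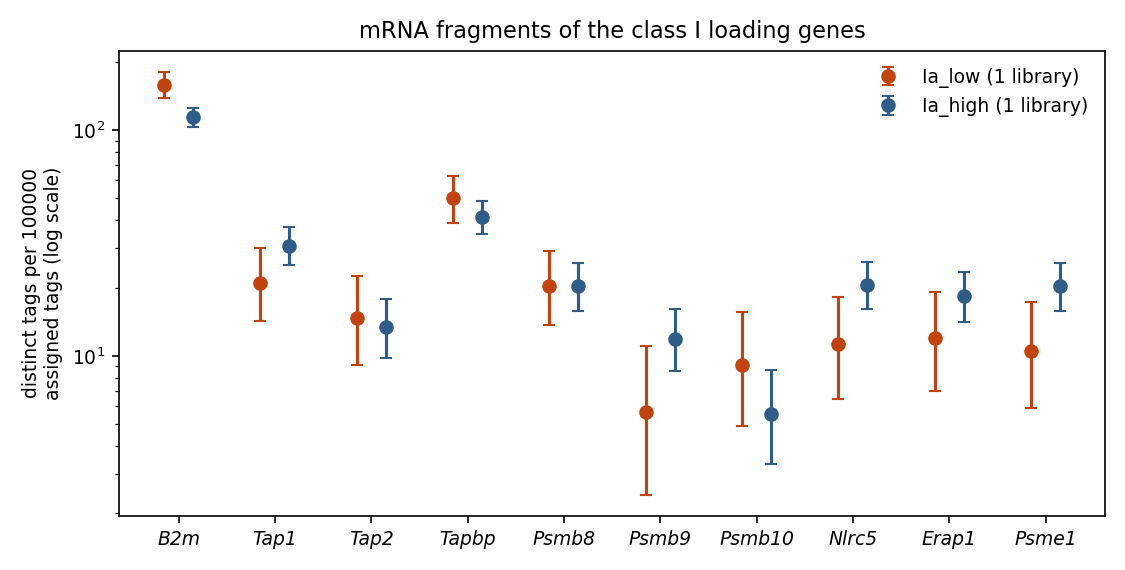
Level of each class I loading gene in Ia_low (left of each pair) and Ia_high, as distinct tags per 100000 assigned tags on a log axis, with 1 library per population; bars are exact 95% intervals for counting error. B2m stood above all others at 159 in Ia_low and 114 in Ia_high.

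B2m encodes beta-2-microglobulin, the light chain without which class I heavy chains do not reach the surface stably. It had 227 tags in Ia_low and 393 in Ia_high, or 159 per 100000 (139 to 182) in Ia_low and 114 (103 to 126) in Ia_high. The ratio was 1.39 (1.18 to 1.65), the only one of the 10 whose interval lay above 1. By reads there was no such difference, with 3521 reads in Ia_low and 4450 in Ia_high and a ratio of 0.996 (0.953 to 1.04). B2m, ENSMUSG00000060802, lies on chromosome 2 of GRCm38 from 122147686 to 122153083 on the plus strand.

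Distinct B2m tags covered 74.8% of the 860 bases of the mRNA in Ia_low and 81.3% in Ia_high, and 145 bases were covered in neither. The deepest point was base 99 of the transcript in both, under 34 tags in Ia_low and 55 in Ia_high. Further high points of the coding part lay at bases 164 and 330 in Ia_low and at 165 and 332 in Ia_high. Between these, coverage was lower and its highest point differed, with 8 tags at base 227 in Ia_low and 17 at base 270 in Ia_high. In the 3′ untranslated part there was a high point at base 583 in both libraries, under 15 tags in Ia_low and 28 in Ia_high, and another at base 772 in Ia_low (15 tags) and 774 in Ia_high (24 tags). Across the 860 bases the number of covering tags had a Pearson correlation of 0.961 between the libraries, as a description only, since neighbouring bases share tags and both profiles share the same sequence. Of the B2m tags, 102 were identical in both libraries, 44.9% of those in Ia_low and 25.95% of those in Ia_high. Over all assigned tags these shares were 19.99% of Ia_low and 8.28% of Ia_high.

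**Figure D2:**
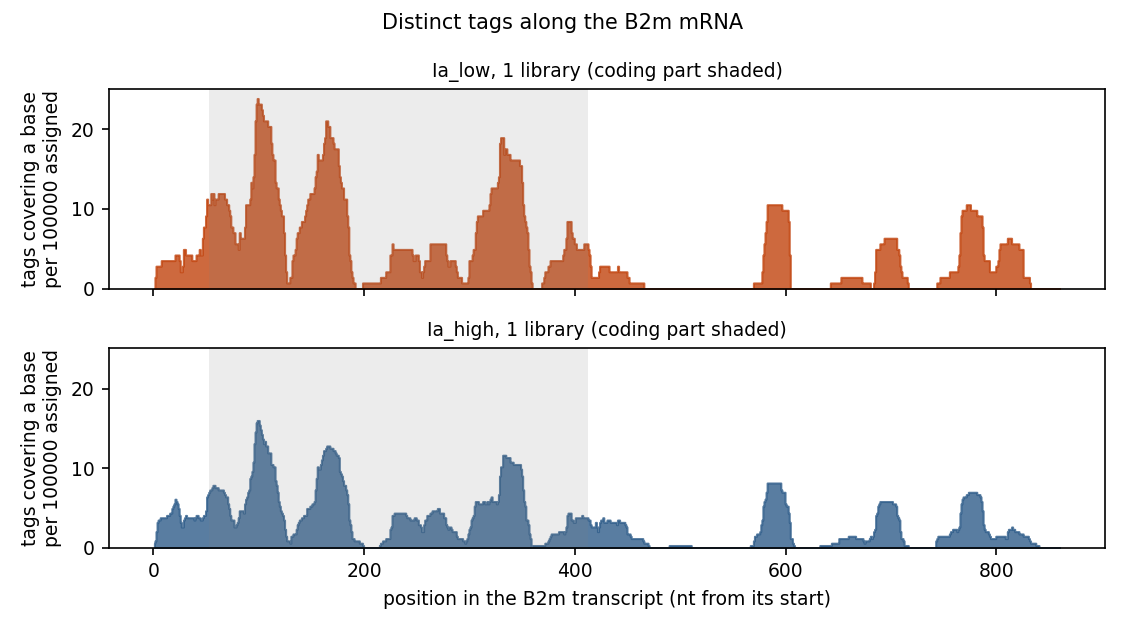
Distinct tags covering each base of the B2m transcript, per 100000 assigned tags, in Ia_low (above) and Ia_high (below), against the position in nt from the transcript's start; the coding part is shaded. The deepest point is at base 99 in both libraries.

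Tap1 and Tap2 encode the subunits of the TAP peptide transporter. Tap1 had 30 tags in Ia_low and 106 in Ia_high, or 21.1 per 100000 (14.2 to 30.1) in Ia_low and 30.8 (25.2 to 37.3) in Ia_high, a ratio of 0.683 (0.440 to 1.03). By reads it had 264 in Ia_low and 704 in Ia_high, 2.12-fold lower in Ia_low. Tap2 had 21 tags in Ia_low and 46 in Ia_high, or 14.7 per 100000 in Ia_low and 13.4 in Ia_high, a ratio of 1.10 (0.625 to 1.88). By reads Tap2 had 181 in Ia_low and 283 in Ia_high, a ratio of 0.805 (0.665 to 0.974), and with tags of 20 to 24 nt its ratio was 0.525 (0.133 to 1.52). By distinct tags, the intervals of both transporter subunits held 1, and the side of 1 on which Tap2 lay depended on the measure. Tapbp encodes tapasin, which holds the empty class I molecule next to TAP. It had 71 tags in Ia_low and 142 in Ia_high, or 49.9 per 100000 (38.9 to 62.9) in Ia_low and 41.3 (34.8 to 48.7) in Ia_high, a ratio of 1.21 (0.895 to 1.62), and 1.35 by reads. Scaled to all tags of 20 to 30 nt, the Tapbp ratio was 0.913. A further 202 tags in Ia_low and 243 in Ia_high matched Tapbp along with other protein-coding genes and were left out. Most of the Tapbp tags lay in the 3′ untranslated part, 70.0% in Ia_low and 54.6% in Ia_high. Over the coding part alone its ratio was 0.873 (0.470 to 1.55), and over the 3′ untranslated part 1.54 (1.05 to 2.23).

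Psmb8, Psmb9 and Psmb10 encode the catalytic subunits that replace the standard ones in the immunoproteasome. Psmb8 had 29 tags in Ia_low and 70 in Ia_high, which is 20.4 per 100000 in both libraries, a ratio of 1.0002 (0.625 to 1.56). Psmb9 had 8 tags in Ia_low and 41 in Ia_high, or 5.62 per 100000 (2.43 to 11.1) in Ia_low and 11.9 (8.56 to 16.2) in Ia_high. It was 2.12-fold lower in Ia_low, the lowest ratio of the 10, but its interval for the ratio, 0.191 to 1.02, held 1. Counting tags with the same first 20 nt once, the Psmb9 ratio was 0.699 (0.274 to 1.59), and Nlrc5 was lowest at 0.516. By reads Psmb9 had 77 in Ia_low and 240 in Ia_high, 2.48-fold lower. Psmb10 had the highest ratio, 1.65 (0.750 to 3.53), from only 13 tags in Ia_low and 19 in Ia_high, and 1.73 by reads. These subunits enter a proteasome together, yet their fragment ratios ran from 0.471 to 1.65 with intervals that overlapped. Summed, the immunoproteasome subunits had a ratio of 0.929 (0.656 to 1.30), and the standard subunits Psmb5, Psmb6 and Psmb7, which they replace, 0.881 (0.522 to 1.44).

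Psme1 encodes a subunit of the interferon-inducible proteasome activator. It had 15 tags in Ia_low and 70 in Ia_high, or 10.5 per 100000 (5.90 to 17.4) in Ia_low and 20.4 (15.9 to 25.7) in Ia_high, a ratio of 0.517 (0.275 to 0.913). Of these, 3 tags in Ia_low and 20 in Ia_high also matched non-coding genes annotated elsewhere, so that reads of near-identical copies could not be told apart there. Without them the ratio was 0.580 (0.281 to 1.11). By length, the Psme1 ratio was 0.199 (0.0231 to 0.777) for tags of 20 to 24 nt and 0.677 (0.330 to 1.30) for tags of 25 to 30 nt. Its partner Psme2 had only 2 tags in Ia_low and 5 in Ia_high, under the minimum. Erap1 encodes the aminopeptidase that trims peptides in the endoplasmic reticulum. It had 17 tags in Ia_low and 63 in Ia_high, or 11.9 per 100000 in Ia_low and 18.3 in Ia_high, a ratio of 0.651 (0.357 to 1.13).

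Nlrc5 encodes the transactivator that switches on class I genes, as Ciita does for class II. It had 16 tags in Ia_low and 71 in Ia_high, or 11.2 per 100000 (6.42 to 18.2) in Ia_low and 20.7 (16.1 to 26.05) in Ia_high. The ratio was 0.544 (0.295 to 0.945), 1.84-fold lower in Ia_low. Ciita itself was 5.03-fold lower in Ia_low (3.25 to 8.16), with 22 tags in Ia_low and 267 in Ia_high. Nlrc5 and Psme1 were thus the genes whose interval lay below 1, 2 of the 10, while 11.9% of all genes measured had such an interval and 9.55% had one above 1. Centred on the median ratio of all genes, both intervals held 1, at 0.326 to 1.04 for Nlrc5 and 0.304 to 1.01 for Psme1.

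**Figure D3:**
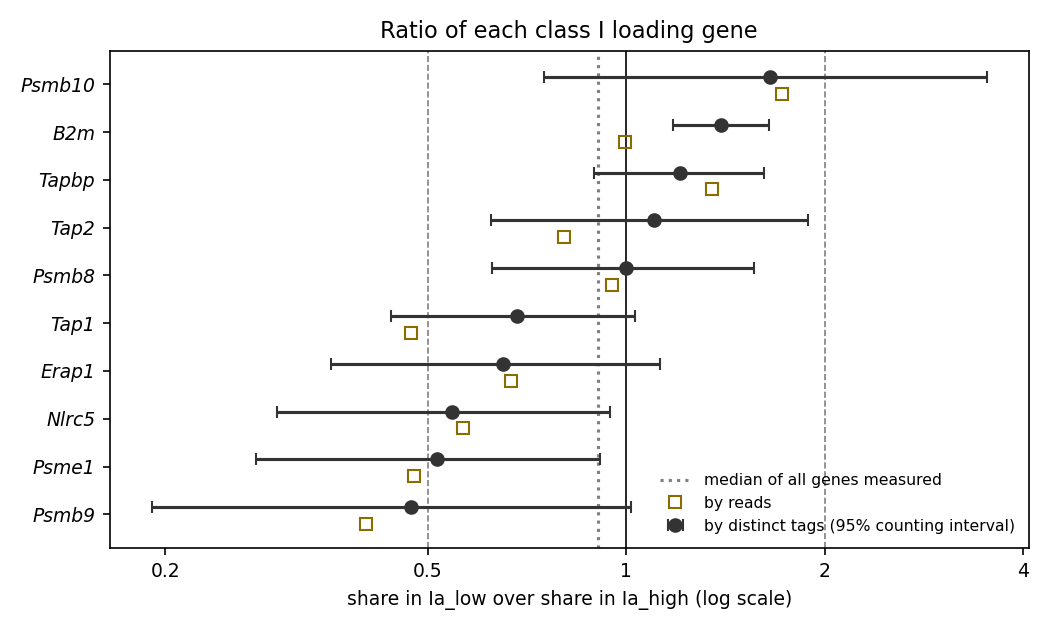
Ratio of the share in Ia_low over the share in Ia_high for each class I loading gene on a log axis, by distinct tags (filled points, bars are exact 95% counting intervals) and by reads (open squares). Dashed lines mark 2-fold in either direction and the dotted line the median of all genes measured, 0.905; Psmb9 lay lowest at 0.471 and Psmb10 highest at 1.65.

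Counting reads in place of distinct tags called 3 of the 10 genes at least 2-fold lower in Ia_low and 0 higher. These were Tap1, Psmb9 and Psme1, with ratios of 0.472, 0.404 and 0.477. The background by reads was larger as well, at 19.9% of all genes lower and 11.3% higher. A single gene, Vmp1, held 18.0% of the assigned reads in Ia_low and 12.6% in Ia_high, and these are part of the totals. What part Vmp1 had in the ratios and calls by reads was not tested. Reads of 1 tag may be PCR copies, so intervals from reads are too narrow. Intervals from distinct tags may be too narrow as well, since several tags of a gene can start at the same base. B2m had 227 tags from 132 starts in Ia_low and 393 tags from 193 starts in Ia_high. Distinct tags can also level off on a short, densely covered mRNA such as that of B2m. What part this had in the B2m ratio by tags, and in the sum that B2m led, was not tested. B2m tags had been read 15.5 times on average in Ia_low and 11.3 times in Ia_high, while the other 9 ran from 8.54 to 12.6 in Ia_low and from 4.26 to 6.73 in Ia_high. The most-read Psme1 tag held 23.7% of its reads in Ia_low and 11.3% in Ia_high, and that of Psmb9 20.8% in Ia_low and 12.1% in Ia_high.

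Psmb9, Tap1, Psmb8 and Tap2 lie in this order in a stretch of chromosome 17 within the MHC, from 34181987 to 34216321. Psmb9 runs on the minus strand and Tap1 on the plus strand. Their annotated spans overlap head to head, with the 5′ end of Psmb9 at 34187764 and that of Tap1 at 34187553. This pair had 38 tags in Ia_low and 147 in Ia_high, a ratio of 0.624 (0.425 to 0.897) by tags and 0.455 by reads. The next pair, Psmb8 and Tap2, had 50 tags in Ia_low and 116 in Ia_high, a ratio of 1.04 (0.732 to 1.46) by tags and 0.897 by reads. The pairs were formed after the values had been seen, and the difference between them was not tested.

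Per kilobase of the transcript with the longest coding part, B2m had 185 tags per 100000 in Ia_low (162 to 211) and 133 in Ia_high (120 to 147), far above the rest. Tapbp followed in Ia_low with 16.96 (13.2 to 21.4) and Psmb8 with 12.5 (8.38 to 18.0). In Ia_high the next were Psme1 with 18.0 (14.0 to 22.8), Tapbp with 14.2 (11.9 to 16.7) and Psmb8 with 12.3 (9.59 to 15.6). Nlrc5 was lowest on this scale, with 1.39 in Ia_low and 2.69 in Ia_high, and Erap1 next with 2.12 in Ia_low and 3.25 in Ia_high. Below B2m, each gene's interval overlapped that of its neighbour in the order, in both libraries. Tap1 (7.13 in Ia_low and 9.85 in Ia_high) lay in the middle of the order, and the intervals of Tap1 and Tap2 (4.28 in Ia_low and 3.89 in Ia_high) overlapped in Ia_low and were apart in Ia_high.

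On those transcripts, 64.6% of the tags in Ia_low and 65.0% in Ia_high lay in the coding part and 30.9% in Ia_low and 28.8% in Ia_high in the 3′ untranslated part. Exon joins were crossed by 10.2% of the tags in Ia_low and 8.23% in Ia_high. The ratio summed over the 10 genes was 1.05 (0.913 to 1.21) in the coding part and 1.14 (0.921 to 1.40) in the 3′ untranslated part. Only 4 tags in Ia_low and 12 in Ia_high matched another transcript of the gene alone. The share of tags of 25 nt or more was higher in Ia_low in all 10 genes, and over all assigned tags it was 63.9% in Ia_low and 51.0% in Ia_high. For B2m it was 57.7% in Ia_low and 47.3% in Ia_high.

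The rest of the class I pathway was described by 8 lists of 94 genes, of which 80 had 10 tags or more. In Ia_low 3 of them were called higher (3.75%, beside 6.21% of all genes) and 9 lower (11.25%, beside 9.51%), and their median ratio was 0.927. The classical heavy chains H2-K1 and H2-D1 were above 1 without reaching 2-fold. H2-K1 had 179 tags in Ia_low and 272 in Ia_high, or 126 per 100000 in Ia_low and 79.1 in Ia_high, a ratio of 1.59 (1.31 to 1.93). H2-D1 had 191 tags in Ia_low and 243 in Ia_high, or 134 per 100000 in Ia_low and 70.7 in Ia_high, a ratio of 1.90 (1.56 to 2.30). Unlike that of B2m, these ratios stayed above 1 by reads, at 1.38 and 1.72. Heavy chain genes are near-identical in places, and 110 tags in Ia_low and 227 in Ia_high fitted several of 14 listed ones and no other coding gene. Tags that also fitted coding genes outside these 14 were left out. H2-Q10, for example, shared 233 tags in Ia_low and 331 in Ia_high with coding genes inside or outside the 14. Counting all tags that matched heavy chains alone, 607 in Ia_low and 1064 in Ia_high, gave a ratio of 1.38 (1.24 to 1.52). Among the non-classical heavy chains, H2-M2 had 0 tags in Ia_low and 36 in Ia_high, at least 4.97-fold lower by a floor of 3 tags per library, and H2-M3 had 3 tags in Ia_low and 28 in Ia_high, a ratio of 0.259 (0.0503 to 0.837).

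Partners of the loading complex did not reach 2-fold. Calr and Canx encode the lectin chaperones of the endoplasmic reticulum, Pdia3 the disulfide isomerase bound to tapasin, and Tapbpl the tapasin-related peptide editor. Calr had a ratio of 0.929 (0.717 to 1.20), Canx of 1.14 (0.797 to 1.61), Pdia3 of 0.749 (0.511 to 1.07) and Tapbpl of 0.966 (0.307 to 2.63). None of the 8 genes of that list was called. In the standard core proteasome 2 of 14 were lower, Psma3 2.43-fold (1.14 to 5.96) and Psmb3 with 0 tags in Ia_low and 15 in Ia_high, at least 2.07-fold lower by the same floor. Psmb5 (ratio 1.32), Psmb6 (0.583) and Psmb7 (1.05) had intervals that held 1. Many tags of these core genes also match non-coding genes, which may be near-identical copies, so their values are uncertain. Without such tags Psma3 had 2 tags in Ia_low and 3 in Ia_high, and Psmb3 had 0 in Ia_low and 4 in Ia_high. None of the 17 genes of the proteasome cap and none of the 3 measured of 8 activator and assembly genes was called. Of the 4 measured cytosolic peptidases, Lap3, a leucine aminopeptidase, was lower with 1 tag in Ia_low and 17 in Ia_high, a ratio of 0.142 (0.00340 to 0.906).

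Regulators and cross-presentation genes held all 3 higher genes of the pathway lists. Irf1, an interferon-induced transcription factor known to act on class I genes, had 55 tags in Ia_low and 63 in Ia_high, 2.11-fold higher in Ia_low (1.44 to 3.08) and 2.39-fold by reads. Ifnar2, a chain of the type I interferon receptor, was 2.12-fold higher (1.14 to 3.93). Cybb, the catalytic subunit of the phagocyte oxidase, had 321 tags in Ia_low and 263 in Ia_high, 2.95-fold higher (2.50 to 3.48). Of the 16 measured regulators, Ciita and the kinase Jak2 (2.49-fold, 1.75 to 3.62) were lower, while Irf2 had a ratio of 1.12 (0.676 to 1.82). Of the 6 measured cross-presentation genes, Wdfy4, which cDC1 need to cross-present and which is also on the cDC1 list, was 3.91-fold lower (3.17 to 4.87), and the trafficking gene Sec22b 4.14-fold lower, from 2 tags in Ia_low and 20 in Ia_high (1.01 to 36.5). H2-M3, Psma3, Ciita, Jak2, Irf2, Wdfy4 and Sec22b were named after their values had been seen.

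**Figure D4:**
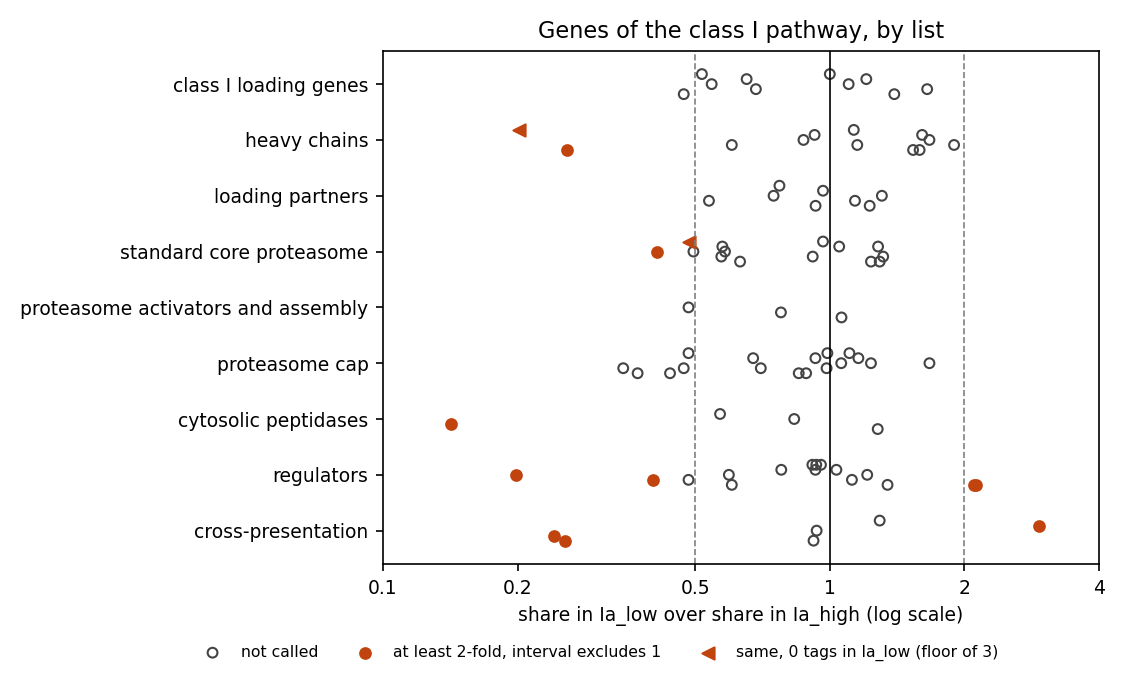
Ratio of the share in Ia_low over the share in Ia_high on a log axis for the class I loading genes (top row) and the 80 measured genes of the 8 other lists; filled points are at least 2-fold with an interval that excludes 1, triangles are such genes with 0 tags in Ia_low set to a floor of 3 tags, and dashed lines mark 2-fold. None of the 10 loading genes is filled, and in the other lists 3 genes are higher and 9 lower. Over all 7132 genes measured, 6.21% were called higher and 9.51% lower.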

How the data were processed

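Each library was deposited as a list of distinct sequences with a count, the number of its reads, and a length. The authors' counts are unscaled, and lengths ran from 18 to 44 nt. Per the labels' protocols, sorted cells were over 95% pure, the small RNA was size-selected on a gel to under 30 bases, joined to adaptors, given 12 PCR cycles and sequenced on a Solexa instrument. The sources used here name no adaptor trimming, filter or genome build. Each tag of 20 to 30 nt was compared, on both strands and allowing no mismatch, with the transcripts of GENCODE M21 (GRCm38). Tags in sense to exactly 1 protein-coding gene were assigned to it. The ratio is the share of distinct tags in Ia_low over that in Ia_high with an exact conditional 95% interval. A call needs 10 tags in both libraries together, a 2-fold ratio and an interval that excludes 1. Genes at 0 were bounded with a floor of 3 tags per library. Transcript positions are those of the protein-coding transcript with the longest coding part.

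The functions were tested on simulated counts (Python 3.11.15, numpy 2.4.6, scipy 1.17.1). The genes and lists were chosen with earlier results of these data known. All 10 genes are named; of the pathway lists, the called genes with the 3 highest and 3 lowest ratios and a fixed set of partners. Alternatives covered the quantity counted, the denominator, tag length, depth, assignment, minimum and fold. Values of some listed genes are not reported here.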

Additional observations from a re-analysis of the deposited data

Results flagged for a closer look

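Tags longer than the range used were frequent in Ia_low. The 10 class I loading genes had 166 tags of 31 to 44 nt in Ia_low and 37 in Ia_high, which is 27.1% of their tags of 20 nt or more in Ia_low and 3.50% in Ia_high. Over all protein-coding genes these shares were 21.5% in Ia_low and 2.38% in Ia_high. B2m had 81 such tags in Ia_low and 20 in Ia_high, and Tapbp 32 in Ia_low and 3 in Ia_high. Scaled to the long tags of each library, the 10 genes had a ratio of 0.964 (0.672 to 1.42).

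Tags antisense to the 10 genes numbered 0 in Ia_low and 5 in Ia_high, beside 447 sense tags in Ia_low and 1021 in Ia_high. The 5 antisense tags are above the limit of 3 tags that a count of 0 allows in Ia_high. They matched Tapbp with 3 tags and Psmb8 with 2. Over all protein-coding genes there were 2698 antisense tags in Ia_low and 5347 in Ia_high, beside 142394 sense tags in Ia_low and 343784 in Ia_high.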

How the results depend on the processing

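The count of 0 called class I loading genes and the summed ratio of 1.06 depended on some choices; the share of all genes called lower under each stands beside it. By reads, 3 were called, all lower (19.9% of all genes), and the summed ratio was 0.905; by reads without tags that match any other gene, 2 (lower, 20.3%) and 0.909. Scaled to all tags of 20 to 30 nt, 4 were called, all lower (18.6%), and the summed ratio was 0.799. Counting tags of several coding genes for each, which also enlarges the total of assigned tags, gave 5 (lower, 13.2%) and 0.906. B2m, Psmb9, Nlrc5 and Psme1 have 0 such tags of their own, so their lower ratios there come from the larger total. Tags of 20 to 24 nt called 1 (lower, 6.49%), stratifying by tag length 2 (lower, 6.94%) and a 1.5-fold rule 2 (lower, 11.4%). Without B2m the summed ratio was 0.846. It was 1.17 (1.04 to 1.31) centred on the median of all genes and 1.12 (1.02 to 1.24) with tags of 20 to 44 nt, with intervals above 1. No alternative called one of the 10 genes higher. Psmb9, Tap1, Nlrc5, Erap1 and Psme1 stayed below 1 in all 14 alternatives that gave a ratio per gene, and Psmb10 above 1; B2m ran from 0.989 to 1.55.

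For the other pathway genes, 12 of 80 measured were called (3 higher, 9 lower). The shares of all genes called the same way stand beside the counts that follow. Reads called 20 of 80, 16 of them lower (19.9% of all genes). Reads without tags of any other gene called 14 of 75 lower (20.3%). All tags as denominator called 20 of 80, 1 higher (3.08%) and 19 lower (18.6%). Tags of several genes called 19 of 86, 1 higher (2.16%) and 18 lower (13.2%). Tags of 20 to 24 nt called 7 of 67, 1 higher (5.48%) and 6 lower (6.49%). Stratifying by length and tags of 20 to 44 nt left 1 higher each (7.05% and 6.59%), and a 1.5-fold rule 5 higher (8.83%). Reads without tags of other genes, tags of 20 to 44 nt and the sum without B2m were chosen after seeing the data. The cause of the other changes was not tested. The median ratio of all genes was -0.14 on the log2 scale, and -0.55 with all tags as denominator. Genes with few tags, such as Psmb10 and Psmb9, carry intervals that span over 4-fold. No paired analysis was possible because there was 1 library per population.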
